A study of Mus musculus with 12 samples.

Results

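Sugar transport and fructose metabolism were followed through 9 genes of the mouse duodenum, chosen as the named members of a pathway and measured by every array probe whose accession maps to them. They are the transporters Slc5a1, Slc2a2 and Slc2a5, the fructose enzymes Khk and Tkfc, the glucose-forming enzymes G6pc, Fbp1 and Pck1, and the carbohydrate-responsive transcription factor Mlxipl. These genes had 10 probes in all, and the 9 genes stand among 26107 features that were tested, of which 15583 were named genes. All 10 probes were well above background on all 12 arrays, so none of the 9 genes was lost to the filter on dim probes.

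The RNA came from the whole duodenum of male mice in 4 groups of 3: Akp3-/- mice given IIAEK, Akp3-/- mice given vehicle, wild-type mice given IIAEK and wild-type mice given vehicle. Akp3 is the gene of an alkaline phosphatase of the duodenal brush border, and IIAEK is a pentapeptide that the labels describe as lowering cholesterol. Dosing was by mouth, daily for 14 days, at 600 mg per kg of body weight in a carboxymethylcellulose solution of 5 g/L, which alone served as vehicle. Dosing began at 7 weeks of age, and tissue was collected after a fast of 8 h. Source labels of some IIAEK samples give dosing times longer than the titles and the design text do. The strain and the way the knockout was made are not given in the sources used here, and no label says whether same-group mice shared a litter or cage, so p-values measure only the spread between these samples.

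Dietary sugars are split at the brush border of the enterocyte, and glucose and galactose enter with sodium through SGLT1 (Slc5a1), whereas fructose enters through GLUT5 (Slc2a5). GLUT2 (Slc2a2) passes hexoses on across the basolateral membrane. Inside the cell, enzymes that include ketohexokinase (Khk) and triokinase (Tkfc) turn fructose into triose phosphates. These can leave as glucose through the gluconeogenic enzymes Fbp1 and G6pc, whereas Pck1 acts at an earlier step of gluconeogenesis, before the triose phosphates. ChREBP (Mlxipl) is the factor through which sugar phosphates induce many of these genes.

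The start regions of 5 of the genes are shown because they carry letters known from carbohydrate, liver-type and fasting control. Each is RefSeq sequence of build GRCm38.p6, running from 250 bases before to 50 bases after the start, 5′ to 3′ on the gene's strand, and here all on the plus strand. Capitals mark matches, on either strand, to any of 7 motifs. CACGTG is the core of the E-box, to which ChREBP and related factors bind. GTTAAT belongs to the binding site of HNF1, a factor of liver and gut. The motif TGATAA is one form of the site of the zinc finger factors active in small intestine, and AGATAA is the other form searched. The motif TTTATG is known from intestinal CDX factors. The motif ACGTCA belongs to the cAMP response element, and TATAAA is the TATA box.
Slc5a1, chr5:33103969-33104268: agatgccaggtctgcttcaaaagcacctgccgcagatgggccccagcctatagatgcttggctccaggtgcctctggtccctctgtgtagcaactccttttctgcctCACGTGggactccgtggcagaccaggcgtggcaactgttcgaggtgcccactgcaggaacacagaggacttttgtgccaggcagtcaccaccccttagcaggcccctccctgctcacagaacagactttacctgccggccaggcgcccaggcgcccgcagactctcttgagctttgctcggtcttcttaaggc
Khk, chr5:30921309-30921608: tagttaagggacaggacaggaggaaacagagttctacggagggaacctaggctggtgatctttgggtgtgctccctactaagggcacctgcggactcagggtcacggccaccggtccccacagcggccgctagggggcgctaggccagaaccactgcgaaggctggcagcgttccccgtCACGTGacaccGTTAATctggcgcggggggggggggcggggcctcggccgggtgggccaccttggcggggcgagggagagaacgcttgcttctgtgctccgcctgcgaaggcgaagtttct
Mlxipl, upstream start, chr5:135089640-135089939: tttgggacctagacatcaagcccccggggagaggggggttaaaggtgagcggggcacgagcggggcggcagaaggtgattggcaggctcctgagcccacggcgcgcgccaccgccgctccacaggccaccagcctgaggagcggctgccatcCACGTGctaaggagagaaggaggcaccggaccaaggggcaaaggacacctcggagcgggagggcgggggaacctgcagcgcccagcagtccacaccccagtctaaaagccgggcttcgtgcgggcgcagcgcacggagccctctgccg
G6pc, chr11:101367466-101367765: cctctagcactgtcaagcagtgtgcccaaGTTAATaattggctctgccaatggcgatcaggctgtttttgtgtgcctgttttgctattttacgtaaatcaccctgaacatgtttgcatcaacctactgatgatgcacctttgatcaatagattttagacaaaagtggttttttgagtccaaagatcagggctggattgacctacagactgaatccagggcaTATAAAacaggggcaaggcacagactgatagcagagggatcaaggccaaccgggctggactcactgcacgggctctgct
Pck1, chr2:173152823-173153122: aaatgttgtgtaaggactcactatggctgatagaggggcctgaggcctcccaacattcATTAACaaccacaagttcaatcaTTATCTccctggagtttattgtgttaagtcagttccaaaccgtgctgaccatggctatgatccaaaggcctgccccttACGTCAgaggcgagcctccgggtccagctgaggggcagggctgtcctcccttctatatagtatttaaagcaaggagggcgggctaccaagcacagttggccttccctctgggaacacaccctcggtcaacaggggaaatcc

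CACGTG stood at base -143 in Slc5a1, -71 in Khk and -98 at the upstream Mlxipl start, counted from the start to the first base of the motif, and in 7.15% of all 32851 RefSeq windows of the same length. GTTAAT stood at -60 in Khk, at -221 in G6pc and, read on the other strand as ATTAAC, at -192 in Pck1, against 7.1% of all windows. Pck1 also held ACGTCA at -91 (7.51% of all windows) and TTATCT, the reverse of AGATAA, at -169 (11.2%), and G6pc held TATAAA at -29 (13.6%). Of the start regions that are not printed, Slc2a2 held TTATCA, the reverse of TGATAA, at -156 (9.05%), and Fbp1 held AGATAA at -116. TTTATG (11.9% of all windows) was in none of the 10 windows of the 9 genes, and Slc2a5, Tkfc and the downstream Mlxipl start held none of the 7 motifs. A match describes letters and is not a measured binding site.

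Levels are log2 intensities from which the 75th percentile of the array was subtracted, so 0 is that percentile. A log2 fold change is the knockout minus the wild type, or IIAEK minus vehicle, with a standard error (SE), a 95% confidence interval and a p from limma that was adjusted by Benjamini-Hochberg over all 26107 features. A gene is called where its adjusted p is under 0.05. Levels of different genes come from different probes and are not compared with each other. In RNA of a whole tissue, fewer cells of a type and less RNA per cell cannot be told apart.

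On single arrays 55.9% to 64.0% of the probes passed as well above background, no probe was saturated, and replicate arrays of a group correlated at 0.953 to 0.990. Akp3 separated the genotypes: its level lay between -4.90 and -3.80 in the 6 knockout mice, against 1.05 to 2.72 in the 6 wild-type mice. It fell by 6.34 under IIAEK (adjusted p = 2.72e-05) and by 6.01 under vehicle (adjusted p = 4.82e-05). This probe was well above background on 1 of 3 knockout IIAEK and 2 of 3 knockout vehicle arrays, against all 6 wild-type arrays, so the size of the fall rests partly on signals near background. All 10 enterocyte markers listed were well above background on all arrays, with a mean level of 6.72 to 7.28 in knockout under IIAEK, 7.0 to 7.31 in knockout under vehicle, 7.04 to 7.35 in wild type under IIAEK and 6.84 to 7.44 in wild type under vehicle. Some arrays stood apart in markers of other tissue. Knockout IIAEK mouse 3 had the highest smooth muscle level (4.49, against 2.68 to 3.84 on the others) together with the lowest enterocyte level. Wild-type vehicle mouse 1 had an exocrine pancreas level of 3.05 (12 genes), against 8.02 to 9.82 on the other arrays. Stomach mucous genes, 6 of 7 listed, were high (5.43 to 6.98) on all 3 wild-type vehicle arrays, wild-type IIAEK 3, knockout vehicle 1 and knockout IIAEK 3, and lay between -1.67 and 0.11 on the other arrays. The part of these differences in the results was not tested.

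No difference by IIAEK or by the loss of Akp3 passed the test in any of the 9 genes. In each of the 4 comparisons between groups, and in the difference between genotypes and both averaged effects, limma called 0 of the 9 genes, and 0 of the 9 had an unadjusted p under 0.05. Among all features the called share was 0% for IIAEK in knockout, 0% for IIAEK in wild type, 0% for the difference and 0% for averaged IIAEK. It was 0.00766% (2 features) for the knockout under IIAEK and likewise under vehicle, and 0.0192% (5 features) for the averaged knockout effect. At an unadjusted p under 0.05 the shares of all features were 1.91% for IIAEK in knockout, 3.14% for IIAEK in wild type, 1.31% for the knockout under IIAEK and 3.85% for the knockout under vehicle, and they were 1.52% for the difference, 2.94% for averaged IIAEK and 3.03% for the averaged knockout effect.

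**Figure D1:**
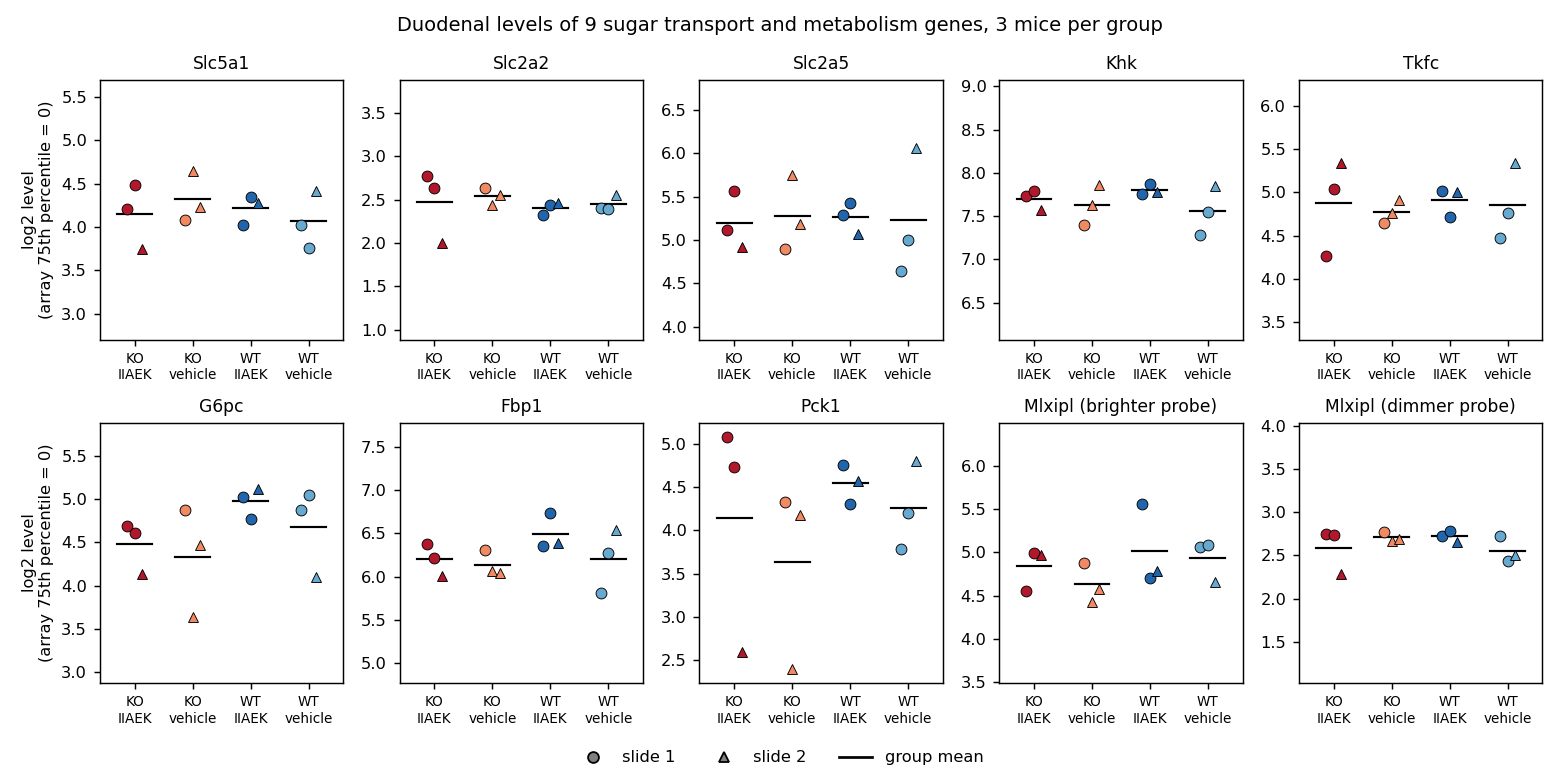
Log2 level (array 75th percentile = 0) of each of the 10 probes in every mouse, by group from left to right (knockout IIAEK, knockout vehicle, wild-type IIAEK, wild-type vehicle). Each panel spans 3 log2 units, circles are slide 1, triangles slide 2, and black lines group means. Groups that share a genotype or a treatment overlap in every panel except G6pc. There the 3 points of knockout under IIAEK lie below the 3 of wild type under IIAEK. Of groups that differ in both, the Fbp1 points of knockout under vehicle (highest 6.31) lie below those of wild type under IIAEK (lowest 6.35).

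Slc5a1 encodes the sodium-coupled glucose and galactose carrier of the brush border. Its level was 4.21, 4.48 and 3.75 in knockout mice given IIAEK, 4.08, 4.65 and 4.23 in knockout mice given vehicle, 4.02, 4.35 and 4.28 in wild-type mice given IIAEK and 4.02, 3.76 and 4.41 in wild-type mice given vehicle. No group was set apart, and all groups overlapped. The group means, from the highest, were 4.32 in knockout vehicle, 4.22 in wild-type IIAEK, 4.15 in knockout IIAEK and 4.06 in wild-type vehicle, and no neighbours in that order were separate. The IIAEK effect was -0.17 in knockout (interval -0.67 to 0.34) and 0.16 in wild type (-0.35 to 0.66). Their difference of -0.32 (SE 0.33, adjusted p = 1) had the smallest unadjusted p of the 9 genes for that contrast, 0.341.

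Slc2a5, the fructose carrier GLUT5, varied more between mice. Its level was 5.12, 5.56 and 4.92 in knockout under IIAEK, 4.90, 5.75 and 5.18 in knockout under vehicle, 5.29, 5.43 and 5.07 in wild type under IIAEK and 4.64, 5.00 and 6.06 in wild type under vehicle. Wild-type vehicle mice held both the lowest and the highest value, so every other group lay within their range. The fold changes were all near 0, from -0.07 (IIAEK in knockout, interval -0.82 to 0.67) to 0.04 (knockout under vehicle, -0.70 to 0.78). Wild-type vehicle mouse 3 carried much of the spread. Within slide 1 the IIAEK effect in wild type was 0.54. Within slide 2, where that mouse was the only wild-type vehicle array, it was -0.99, against 0.03 over both slides. Slide as a block gave the same 0.03, and could not change it because the 2 groups were split alike over the slides.

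Slc2a2, the basolateral hexose carrier GLUT2, kept a narrow range apart from a single mouse. Levels were 2.77, 2.64 and 2.0 in knockout under IIAEK, 2.63, 2.44 and 2.55 in knockout under vehicle, 2.32, 2.44 and 2.46 in wild type under IIAEK and 2.40, 2.39 and 2.55 in wild type under vehicle. Both the highest and the lowest of the 12 values were from knockout mice given IIAEK, the lowest from mouse 3, the array with the most smooth muscle signal. Across the 12 arrays Slc2a2 had r = -0.85 with the smooth muscle markers and -0.84 with the fibroblast and endothelial markers, a description over arrays that share the same tissue makeup. Fold changes ran from -0.07 (IIAEK in knockout, interval -0.47 to 0.33) to 0.10 (knockout under vehicle, -0.30 to 0.49).

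Khk, which phosphorylates fructose, had the smallest spread of the 9 genes. Its level was 7.73, 7.79 and 7.57 in knockout under IIAEK, 7.40, 7.63 and 7.86 in knockout under vehicle, 7.76, 7.87 and 7.78 in wild type under IIAEK and 7.28, 7.55 and 7.85 in wild type under vehicle. All 3 wild-type IIAEK mice were in the upper part of the range, but knockout IIAEK mouse 2, knockout vehicle mouse 3 and wild-type vehicle mouse 3 lay within theirs. The IIAEK effect was 0.07 in knockout (interval -0.31 to 0.45) and 0.24 in wild type (-0.14 to 0.62, adjusted p = 0.999). Each of these intervals ends below a log2 fold change of 1, so a change of that size in Khk would lie outside them.

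Tkfc, the triokinase that phosphorylates glyceraldehyde, had levels of 4.26, 5.04 and 5.34 in knockout under IIAEK, 4.65, 4.76 and 4.91 in knockout under vehicle, 5.01, 4.71 and 5.00 in wild type under IIAEK and 4.47, 4.76 and 5.34 in wild type under vehicle. The widest group was knockout under IIAEK, which held the lowest value (mouse 1) and, with wild-type vehicle mouse 3, the highest (mouse 3). Fold changes ran from -0.08 (knockout under vehicle, interval -0.68 to 0.53) to 0.10 (IIAEK in knockout, -0.50 to 0.71). Over the 12 arrays Tkfc had r = 0.73 with the smooth muscle, 0.71 with the adipocyte, 0.67 with the hepatocyte and 0.11 with the enterocyte markers, whereas Khk had r = 0.80 with the enterocyte, 0.79 with the islet, 0.74 with the exocrine pancreas and 0.71 with the adipocyte markers, and -0.64 with the leukocyte markers. The array lowest in Khk, wild-type vehicle 1, was also the one lowest in exocrine pancreas markers, and the part of this in the Khk values was not tested.

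G6pc encodes the phosphatase that releases free glucose, and its start region is printed above with its TATA box. Its level was 4.69, 4.61 and 4.13 in knockout mice given IIAEK and 4.87, 3.64 and 4.47 in knockout mice given vehicle, against 5.03, 4.77 and 5.12 in wild-type mice given IIAEK and 4.88, 5.05 and 4.10 in wild-type mice given vehicle. Under IIAEK every knockout mouse was below every wild-type mouse, and under vehicle the genotypes overlapped. The knockout was lower by a log2 fold change of -0.50 under IIAEK (SE 0.32, interval -1.20 to 0.21, a 1.41-fold difference, adjusted p = 1), -0.35 under vehicle (interval -1.05 to 0.35) and -0.42 averaged over treatments (SE 0.23, interval -0.92 to 0.07, adjusted p = 0.999).

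None of these G6pc values passed the test. It was the only 1 of the 9 genes whose groups did not overlap in any comparison, and of all features 2.19% were lower in the knockout without overlap under IIAEK and 3.85% were separate in either direction. Over the other comparisons the groups of all features did not overlap in 4.68% (IIAEK in knockout), 9.28% (IIAEK in wild type) and 14.4% (knockout under vehicle). Within slide 1 the G6pc difference under IIAEK was -0.25 and within slide 2 it was -0.98, against -0.50 over both slides. Slide as a block could not change the -0.50, because the 2 IIAEK groups were split alike over the slides. Under vehicle it was -0.10 within slide 1, -0.04 within slide 2 and -0.18 with slide as a block, and it ran from -0.64 to -0.01 when single mice were left out. On slide 2 every group but knockout vehicle had only its mouse 3, and on slide 1 knockout vehicle had only its mouse 1. The -0.98 is thus knockout IIAEK mouse 3 against wild-type IIAEK mouse 3. The averaged difference was negative under all 24 alternative settings tried, from -0.57 to -0.18. These settings reuse the same mice and several cannot change the value, so the shared sign is not separate evidence.

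Pck1, the cytosolic enzyme of the committed step of gluconeogenesis, varied most. Its level was 5.08, 4.73 and 2.60 in knockout under IIAEK and 4.33, 2.40 and 4.18 in vehicle-treated knockouts, against 4.76, 4.30 and 4.57 in wild type under IIAEK and 3.78, 4.20 and 4.80 in wild type under vehicle. A single mouse of each knockout group (IIAEK mouse 3 and vehicle mouse 2) was far below the other 10, which lay between 3.78 and 5.08. The within-group SD was 0.90, and 3.74% of all features had a larger one.

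With that spread the Pck1 intervals were wide. The knockout was at -0.41 under IIAEK (interval -1.80 to 0.98) and -0.62 under vehicle (-2.01 to 0.77), and the IIAEK effect was 0.50 in knockout (-0.89 to 1.89) and 0.28 in wild type (-1.10 to 1.67). The knockout difference under IIAEK turned to 0.36 without knockout IIAEK mouse 3, and it was 0.37 within slide 1 and -1.97 within slide 2. Under vehicle it was -0.01 without knockout vehicle mouse 2, 0.33 within slide 1 and -1.51 within slide 2. The IIAEK effect in knockout ran from -0.12 to 1.27 when single mice were left out and was 0.58 within slide 1 and -0.69 within slide 2, and in wild type it was 0.54 and -0.23 within these slides. Both low mice were on slide 2, where every group but knockout vehicle had only its mouse 3, so the slide 2 values rest on single mice. Pck1 had r = -0.71 with the crypt markers, whose level was highest (2.34) in knockout IIAEK mouse 3; the crypt level of knockout vehicle mouse 2 was 2.0.

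Fbp1, which removes a phosphate from fructose bisphosphate, had levels of 6.38, 6.22 and 6.01 in knockout under IIAEK, 6.31, 6.06 and 6.04 in knockout under vehicle, 6.35, 6.74 and 6.39 in wild type under IIAEK and 5.81, 6.27 and 6.54 in wild type under vehicle. Wild-type mice given IIAEK were highest on average, but knockout IIAEK mouse 1 and wild-type vehicle mouse 3 lay within their range. The IIAEK effect was 0.07 in knockout (interval -0.36 to 0.51) and 0.29 in wild type (SE 0.20, interval -0.15 to 0.72, adjusted p = 0.999). The knockout difference was -0.29 under IIAEK (interval -0.73 to 0.14) and -0.07 under vehicle (-0.51 to 0.36). Fbp1, G6pc, Pck1 and Khk are also made by liver. Of 9 hepatocyte markers listed, Ttr, Serpina1a, Apoh, Cyp2e1 and Cps1 were well above background on all 12 arrays, Alb on 11, Ahsg on 3, Fgb on 1 and Fga on 0. The 6 first named passed the filter, and their mean level was -1.08 to -0.14 in knockout IIAEK, -0.92 to -0.26 in knockout vehicle, -0.87 to -0.61 in wild-type IIAEK and -1.03 to 1.03 in wild-type vehicle.

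Mlxipl, the gene of ChREBP, was measured by 2 probes that disagreed. The brighter probe read 4.56, 4.99 and 4.97 in knockout under IIAEK, 4.88, 4.43 and 4.58 in knockout under vehicle, 5.56, 4.70 and 4.78 in wild type under IIAEK and 5.06, 5.09 and 4.66 in wild type under vehicle. The dimmer probe read 2.75, 2.74 and 2.28 in knockout under IIAEK, 2.77, 2.67 and 2.69 in knockout under vehicle, 2.72, 2.78 and 2.66 in wild type under IIAEK and 2.72, 2.44 and 2.51 in wild type under vehicle. The groups overlapped by either probe, and over the 12 arrays the probes had r = -0.09. The knockout difference under vehicle was -0.31 by the brighter probe (interval -0.83 to 0.22) and 0.15 by the dimmer one, and neither passed the test. RefSeq gives Mlxipl 2 starts, and of their windows only the upstream one, printed above, held CACGTG. Which transcripts each probe reads was not examined.

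**Figure D2:**
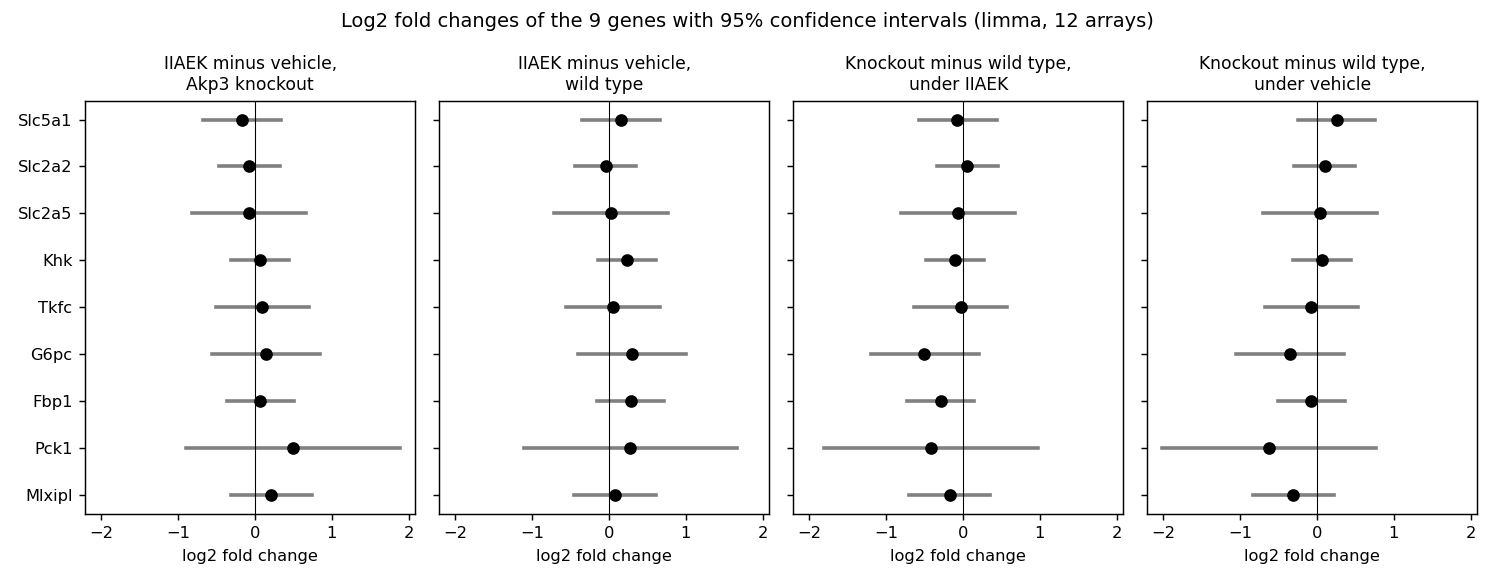
Log2 fold change of each gene (points) with its 95% confidence interval (bars) in the 4 comparisons between groups, from limma over 12 arrays. Every interval includes 0; the Pck1 intervals are the widest and those of Khk and Slc2a2 the narrowest.

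For each of the 9 genes, groups that were neighbours in the order of their means overlapped. By role, the 3 transporters had fold changes between -0.17 and 0.26 over the 4 comparisons, the 2 fructose enzymes between -0.10 and 0.24, and the 3 glucose-forming enzymes between -0.62 and 0.50. Under IIAEK 6 of the 9 genes were above 0 in knockout, with a median of 0.07 against 0.00 over all features, of which 49.2% were above 0. In wild type 8 of 9 were above 0, with a median of 0.16 against 0.03, and 56.3% of all features were above 0. Comparing the knockout with the wild type, 8 of 9 were below 0 under IIAEK (median -0.10, all features -0.01) beside 52.5% of all features. Under vehicle 5 of 9 were below 0 (median -0.07, all features 0.03) beside 45.4% of all features. These comparisons share groups, so the counts are not separate observations, and no gene in them passed the test.

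Some pairs of the genes rose and fell together from mouse to mouse, and others ran opposite. Of 36 pairs, 24 had r above 0 over the 12 arrays, with a median of 0.21. Slc5a1 and Slc2a5 had r = 0.74 (Spearman's rho 0.82), and r = 0.78 without the 2 arrays farthest from the median Slc5a1 level and likewise 0.78 with group means removed. For Slc2a5 and Khk r was 0.67 (rho 0.73), 0.85 without 2 arrays and 0.76 with group means removed. G6pc and Pck1 had r = 0.63 but rho 0.22, and knockout vehicle mouse 2 and knockout IIAEK mouse 3 were low in both. Their r was 0.60 without the 2 arrays farthest from the median G6pc level and 0.55 with group means removed. The arrays left out were knockout vehicle mouse 2 and wild-type vehicle mouse 3, so knockout IIAEK mouse 3 was kept. An r without both low mice was not taken, so the 0.60 does not show how far the correlation rests on them. Slc5a1 and the brighter Mlxipl probe ran opposite (r = -0.60, rho -0.61). So did Slc2a5 and G6pc (r = -0.58, rho -0.54), with -0.71 with group means removed but -0.06 without 2 arrays. Slc5a1 and G6pc had r = -0.46 (rho -0.45), -0.77 without 2 arrays and -0.50 with group means removed. No r was taken for the dimmer Mlxipl probe, which disagreed with the brighter one. Like Slc5a1, the dimmer probe was lowest in knockout IIAEK mouse 3 (2.28, Slc5a1 3.75) and next lowest in wild-type vehicle mouse 2 (2.44, Slc5a1 3.76).

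**Figure D3:**
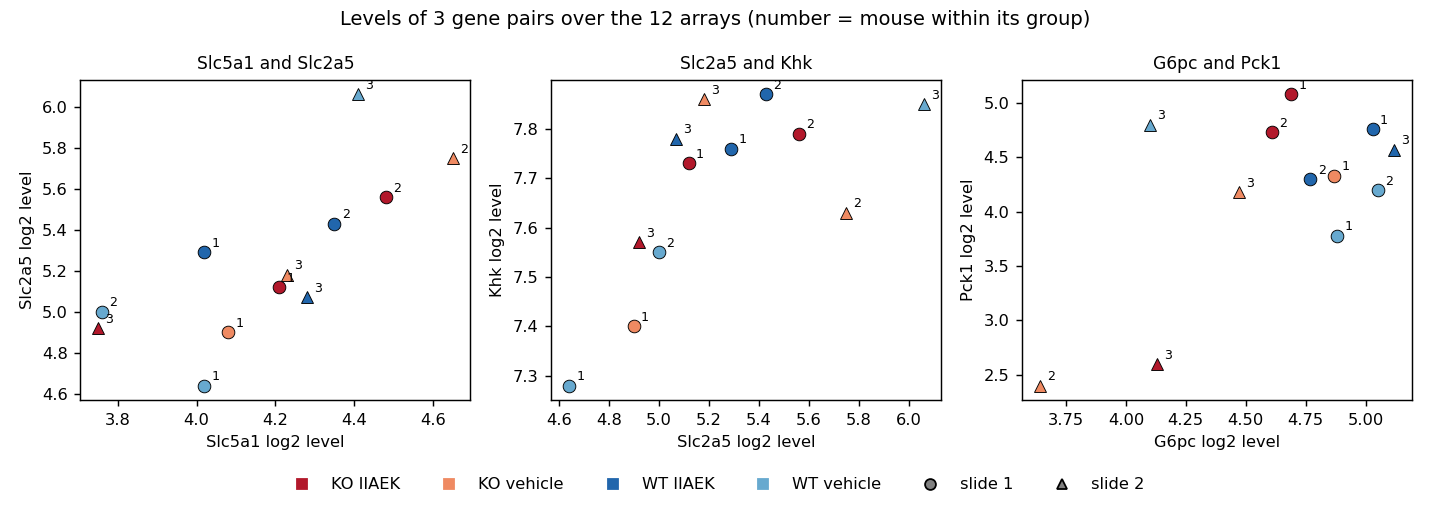
Log2 levels of 3 gene pairs on the 12 arrays, coloured by group, with the mouse number beside each point and the slide given by its shape. Slc5a1 and Slc2a5 (r = 0.74) and Slc2a5 and Khk (r = 0.67) run upward together, and in the G6pc and Pck1 plot 2 knockout mice lie far below the others in Pck1.

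**Figure D4:**
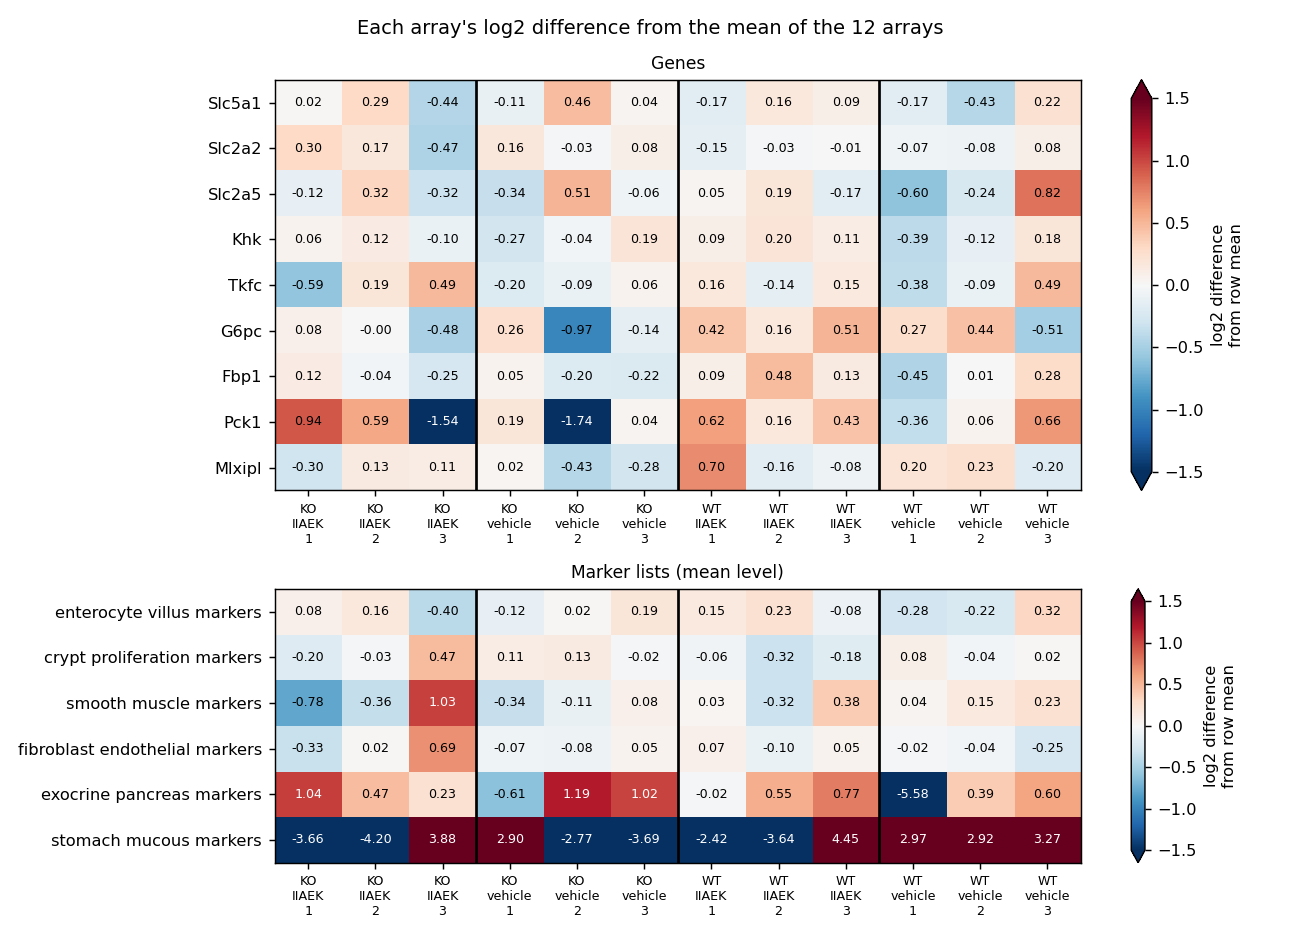
Difference of each array from the mean of the 12 arrays, in log2, for the 9 genes (upper panel) and the mean level of 6 marker lists (lower panel), with groups separated by lines. Knockout IIAEK mouse 3 is low in Slc5a1, Slc2a2 and Pck1 and high in smooth muscle and fibroblast and endothelial markers.

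The named genes most like each of the 9 over the 12 arrays were sought among 9051 named features with an SD of at least 0.25. Slc2a5 was closest to Abcb1a (r = 0.933) and Abcb4 (0.933), which encode ATP-driven export pumps, and to Nat8f4 (0.930). Slc5a1 was closest to Eps8 (0.896), which encodes an actin capping and bundling protein of microvilli, Aldh4a1 (0.890) and Kalrn (0.876). Tkfc was closest to Crat (0.926), the carnitine acetyltransferase, Sult4a1 (0.924) and Gtf3c1 (0.923), and Pck1 to Dipk1c (0.902), Astl (0.892) and Gm30302 (0.887). G6pc was closest to C4bp (0.924), Strip2 (0.877) and Acsl6 (0.870), Fbp1 to Phyh (0.860), Stxbp5l (0.819) and Tmem65 (0.817), and Khk to Ranbp3l (0.857), Cadm4 (0.856) and Thnsl2 (0.853). Slc2a2 was closest to Gm6787 (0.925), Oas1g (0.893) and Suco (0.890), and Mlxipl, by its brighter probe, to Zfp608 (0.925), Ppp6r1 (0.921) and Trrap (0.901). These genes were picked for their high r over 12 arrays of the same mice, so the values are a description.

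Around the 9 genes, 100 further genes of sugar handling were listed in 7 lists, and 93 of them were tested. Limma called 0 of the 93 in any contrast. At an unadjusted p under 0.05, 0 were higher and 2 lower for IIAEK in knockout, and 2 higher and 1 lower for IIAEK in wild type. For the knockout, 0 were higher and 7 lower under IIAEK, against 0 higher and 2 lower under vehicle; under IIAEK 0.900% of all features were lower at that p.

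Of the other hexose transporters 15 of 17 were tested, and their median was 0.12 for IIAEK in knockout and 0.08 in wild type. The sodium-dependent carrier gene Slc5a9 was at 1.37, 2.01 and 1.68 in knockout under IIAEK against 2.69, 2.12 and 1.82 in wild type under IIAEK, an overlap of 1 mouse (log2 fold change -0.52, adjusted p = 1). Under vehicle its knockout difference was -0.36 (interval -0.85 to 0.14, adjusted p = 0.993), there without overlap. Slc2a13, a proton-linked inositol carrier, was at -1.48, -1.74 and -1.81 in knockout under vehicle against -1.46, -0.97 and -1.24 in wild type under vehicle (-0.46, adjusted p = 0.993), without overlap. Under IIAEK its knockout difference was 0.20 (interval -0.20 to 0.60), and its IIAEK effect was 0.40 in knockout (-0.01 to 0.80) and -0.26 in wild type (-0.66 to 0.14). The value farthest from 0 in this list was that of Slc5a2, a sodium-glucose carrier of the kidney, for the knockout under vehicle (2.56, interval -0.37 to 5.49, adjusted p = 0.993), named after its value was seen. Its level was -3.06, 1.03 and -0.16 in knockout under vehicle, against -6.75, -1.24 and -1.88 in wild type under vehicle. The lowest value was that of wild-type vehicle mouse 1, and the probe was well above background on 2 of 3 wild-type vehicle arrays and on all arrays of the other groups. The knockout difference under IIAEK was 0.23 (interval -2.70 to 3.16).

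All 4 genes of disaccharide digestion were tested, and all 4 were below 0 for the knockout under IIAEK, with a median of -0.22. Sis, the sucrase-isomaltase that frees fructose from sucrose, had levels of 9.40, 9.07 and 8.00 in knockout under IIAEK, 8.60, 8.85 and 8.90 in knockout under vehicle, 8.62, 9.33 and 8.67 in wild type under IIAEK and 8.24, 8.28 and 8.89 in wild type under vehicle. Knockout mice given IIAEK held both its highest and its lowest value, and its fold changes ran from -0.05 to 0.40. The trehalase gene Treh was at 4.73, 5.06 and 5.05 in knockout under IIAEK against 5.47, 5.10 and 5.34 in wild type under IIAEK, without overlap (-0.36, interval -0.72 to 0.00, adjusted p = 1), and its difference under vehicle was -0.08 (-0.45 to 0.28). The lactase gene Lct was at -0.45 under IIAEK (interval -1.07 to 0.17) and -0.42 under vehicle (-1.04 to 0.20).

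Of the fructose, polyol and galactose genes 11 of 12 were tested. Glyctk, the glycerate kinase of a side branch of fructose breakdown, was at 0.55, 0.59 and 0.32 in knockout under IIAEK against 1.07, 1.65 and 0.97 in wild type under IIAEK. The groups were separate (-0.75, interval -1.36 to -0.13, adjusted p = 1), and under vehicle the difference was -0.38 (-0.99 to 0.24). The aldose reductase gene Akr1b3, the first step of the polyol pathway from glucose to fructose, had IIAEK effects of -0.30 in knockout (interval -0.64 to 0.04) and -0.33 in wild type (-0.67 to 0.00). Neither passed the test.

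All 16 further gluconeogenic genes were tested. Fbp2, the muscle-type fructose bisphosphatase, was at 2.78, 2.97 and 2.51 in IIAEK-treated knockout mice, and at 3.24, 3.34 and 3.1 in knockout mice given vehicle. The groups were separate, with a log2 fold change of -0.48 (interval -0.78 to -0.17, adjusted p = 1), and in wild type the IIAEK effect was -0.05 (interval -0.36 to 0.26). Pcx, the pyruvate carboxylase upstream of Pck1, was at -0.36 for the knockout under IIAEK (interval -0.68 to -0.05) and 0.00 under vehicle (-0.31 to 0.32). Slc37a4, which carries glucose 6-phosphate to the G6pc enzyme, lay between 4.74 and 5.49 on all arrays, with knockout differences of -0.06 under IIAEK and -0.07 under vehicle.

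All 17 glycolytic genes were tested. Pfkfb4, which sets the level of a phosphofructokinase activator, was at 4.20, 3.93 and 3.65 in IIAEK-treated wild-type mice, and at 3.66, 3.38 and 3.34 in wild-type mice given vehicle, with an overlap of 1 mouse (0.47, adjusted p = 0.999), and the IIAEK effect in knockout was -0.08 (interval -0.46 to 0.31). Hkdc1, a hexokinase family gene, was at 5.05, 5.47 and 5.46 in knockout under IIAEK against 5.79, 5.80 and 5.60 in wild type under IIAEK, without overlap (-0.40, adjusted p = 1), and its difference under vehicle was -0.16 (interval -0.50 to 0.18). Its IIAEK effect was 0.29 in wild type (-0.05 to 0.63, without overlap) and 0.05 in knockout (-0.29 to 0.39).

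Of the ChREBP targets and partners 15 of 16 were tested, with medians of 0.03 for IIAEK in knockout and 0.02 in wild type. Txnip, a glucose-induced target of ChREBP, lay between 4.91 and 5.38 on all arrays, and its 4 fold changes ran from -0.01 to 0.06. Mlx, the dimer partner of ChREBP, was at 1.93, 1.99 and 1.71 in IIAEK-treated knockout mice, and at 2.15, 2.39 and 2.22 in knockout mice given vehicle, without overlap (-0.38, adjusted p = 1), and its IIAEK effect in wild type was -0.05 (interval -0.34 to 0.23). For the knockout under IIAEK the malic enzyme gene Me1 was at -0.67 (interval -1.24 to -0.10) and the desaturase gene Scd1 at -0.61 (-1.18 to -0.04), both with an adjusted p of 1. Under vehicle Me1 was at 0.05 (-0.51 to 0.62) and Scd1 at -0.27 (-0.84 to 0.30). The IIAEK effect in wild type was 0.57 for Scd1 (0.00 to 1.13, without overlap) and 0.49 for Me1 (-0.08 to 1.05, with overlap), each with an adjusted p of 0.999. In knockout it was 0.23 for Scd1 (-0.34 to 0.79) and -0.24 for Me1 (-0.81 to 0.33). Of the genes of sugar sensing and regulation 16 of 19 were tested, and Hnf4a, a transcription factor of enterocytes and liver, lay between 5.48 and 5.89 on all arrays. The leading values of the remaining genes with the smallest p in a list were as follows, and none passed the test. For IIAEK in knockout, Trpm5, a cation channel of taste-like tuft cells, was at -0.64 (interval -1.36 to 0.08) and the phosphofructokinase gene Pfkm at 0.43 (-0.30 to 1.15). For IIAEK in wild type, the carrier gene Slc5a4b was at 0.58 (-0.03 to 1.19). For the knockout under vehicle, the aldolase gene Aldoc was at -0.42 (-0.95 to 0.11), the triose phosphate isomerase gene Tpi1 at 0.28 (-0.04 to 0.60) and the kinase gene Sgk1 at -1.67 (-2.84 to -0.50, adjusted p = 0.993). The Sgk1 difference under IIAEK was -0.39 (-1.56 to 0.78), and its IIAEK effect was -1.08 in wild type (-2.25 to 0.09) and 0.19 in knockout (-0.97 to 1.36).

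**Figure D5:**
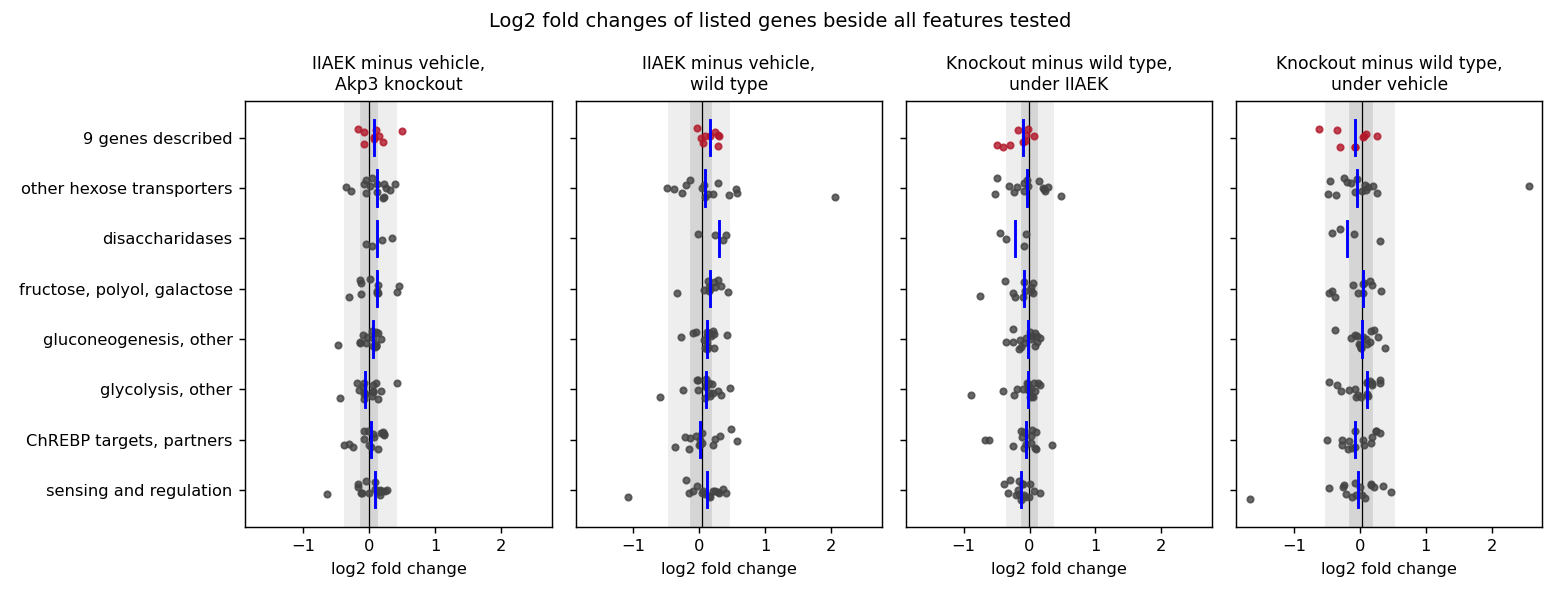
Log2 fold changes of the genes of each list (points, with the list median as a blue line) in the 4 comparisons between groups; the bands run between the 25th and 75th and between the 5th and 95th percentiles of all 26107 features and the black line is their median. The 9 genes are the top row, and the point farthest right among the hexose transporters is Slc5a2 (2.56 for the knockout under vehicle).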

How the data were processed

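Duodenal RNA was labelled with Cy3 and hybridised to 12 Agilent arrays, 1 for each mouse. The scanner output was deposited as made by Feature Extraction 10.7.3.1, per the file headers, and holds a processed intensity for each spot, background-subtracted but not scaled between arrays. The authors' deposited value table holds log2 values whose making is not stated. It matched log2 processed intensity minus the 75th percentile, centred at the probe median (correlation at least 0.999996), with column medians of 0.12, -0.04 and 0.08 for knockout IIAEK, -0.05, -0.09 and 0.09 for knockout vehicle, -0.06, 0.04 and 0.07 for wild-type IIAEK and -0.07, -0.08 and 0.13 for wild-type vehicle. Its scale is thus log2 and its direction that of the intensities. Levels cannot be read from it after centring, and it served as an alternative.

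Control spots (3671 of 62976 spots on an array) and spots with an outlier mark were dropped, at a cost of 22 of 56605 probes. Values of a probe's spots were averaged as log2 processed intensity and each array's 75th percentile (195 to 465 in intensity units) was subtracted. Accessions matched to a RefSeq table of GRCm38.p6 without versions named 32978 of 56583 probes, for 22905 genes. A probe was kept if some group had it well above background on its 3 arrays, and the probe with the highest mean stood for a gene. Limma 3.58.1 in R 4.3.3 fitted 1 mean per group to all 12 arrays with an intensity trend, with two-sided tests and Benjamini-Hochberg adjustment over all features. The script was tested on simulated data for the knockout under vehicle. It called, in the right direction, 29% of features given a log2 change of 1 and 83% of those given 2, with 9 false calls. A gene that was not called may therefore still differ. Precision is limited by having 3 arrays in a group.

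The 9 genes and all lists were chosen with earlier results of these data known. Beside the 9 genes and Akp3, the text names from each list the gene with the smallest p in each comparison of 2 groups, and always Slc37a4, Sis and Txnip; for likeness it names 3 genes for each of the 9. Slide 1 held 7 arrays and slide 2 held 5, with every group on both. Deviations from the group mean of same-numbered arrays correlated between -0.25 and 0.70, over 0.1 in 11 of 18 pairs. Same-numbered arrays shared a slide, apart from knockout vehicle mouse 2, so the numbers were not taken as pairs in general. Slc2a8, Slc2a12, Pnpla3, Tas1r2 and Gnat3 did not pass the filter, and Rsc1a1 had no named probe. Some items under this rule are not reported here.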

Additional observations from a re-analysis of the deposited data

How the results depend on the processing

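The count of called genes among the 9 was 0 in all 7 contrasts under each of the 24 alternatives: normexp background, quantile normalisation, median scaling, no filter on dim probes, the mean of a gene's probes, no intensity trend, slide as a block, each slide alone, a replicate block, only the groups compared, the authors' deposited table and leaving out each mouse in turn (0 to 0). The replicate number as a block, where all 3 pairs correlated over 0.1 only for IIAEK in wild type and for the knockout under vehicle, left every fold change as it was and the number of genes called among the 9 at 0. Among the fold changes of the 9 genes under the alternatives, 1368 kept the sign of the reported value and 144 did not, and none of these was called in either. Several settings cannot change a fold change between 2 groups, among them no intensity trend, the replicate block and leaving out a mouse of another group. Slide as a block cannot change one between groups split alike over the slides, which holds for all groups but knockout vehicle. The counts of kept signs therefore do not measure how stable the fold changes are. Fold changes of the 9 genes moved with slides and single mice, as given with Slc2a5, G6pc and Pck1; Slc5a1 for IIAEK in knockout was 0.27 and -0.69 within slides 1 and 2, Tkfc for IIAEK in wild type 0.24 and -0.33, and G6pc for IIAEK in wild type -0.06 and 1.02. Counts over all features moved more: without wild-type vehicle mouse 3, 17 were called for IIAEK in wild type and 18 for the knockout under vehicle. Within slide 1 alone 257 were called for IIAEK in wild type, and within slide 2 alone 255 for IIAEK in knockout and 80 for the knockout under vehicle, with some groups down to 1 array whose spread was assumed to equal that of the others. The averaged knockout effect, with 5 called, had 3 under normexp, 8 without the trend, 8 with slide as a block, 12 and 49 within slides 1 and 2, and 2 to 10 without single mice. The cause was not tested.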
